A study of Homo sapiens with 15 samples.

Results

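The genes described here carry out DNA replication and the entry into S phase. They were named by symbol, 59 in all, as components of origin licensing, the replicative helicase, the polymerases and their clamp, nucleotide supply, cyclin E and CDK2 control, the E2F factors, and chromatin and fork maintenance. Of these, 58 had a row among the 47459 gene rows with values, and all 58 passed the filter on low values and were tested together with 16046 other genes (16104 in all). UHRF1 was not analysed here.

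Sequencing of mRNA 3′ ends counted transcripts in MM.1S, a human line from multiple myeloma, a plasma cell cancer, with 3 libraries in each of 5 groups. Cells received for 6 h dCBP-1, A-485 together with GNE-781 (the combination), GNE-781, A-485, or the solvent DMSO, with every compound at 100 nM. CBP and p300 are paralogous acetyltransferases that act as transcriptional coactivators. GNE-781 blocks their bromodomains, A-485 blocks their acetyltransferase activity, and dCBP-1 degrades both proteins by linking a binder of their bromodomains, related to GNE-781, with a binder of cereblon, the substrate receptor of a ubiquitin ligase. All groups are 1 cell line, no group received a cereblon ligand alone, and no label says that the 3 libraries of a group came from separate cultures, so the p-values measure the spread between these libraries. Levels are normalized read counts, and log2 fold changes are differences of log2(value + 1).

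Before S phase, the origin recognition complex, CDC6 and CDT1 load the MCM2-7 helicase onto origins, and cyclin E with CDK2 and the DBF4-dependent kinase CDC7 then let CDC45, GINS and MCM10 turn it into an active fork. DNA polymerase alpha with primase starts each strand, replication factor C loads the sliding clamp PCNA for the polymerases that extend it, and ribonucleotide reductase supplies the deoxynucleotides. Most of these genes are known targets of the E2F factors, which retinoblastoma proteins hold inactive until cyclin-dependent kinases release them, and dividing myeloma cells in culture express them.

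Library depth ran from 13.1 to 18.29 M reads. The plasma cell marker SDC1 lay between 1435 and 1512 in dCBP-1 libraries, against 6254 to 7369 in DMSO libraries, and TNFRSF17 between 324 and 445, against 5409 to 6948. All 8 plasma cell and myeloma markers read were lower in every dCBP-1 library than in every DMSO library. Their summed level was 7469 to 8268 in dCBP-1, 20454 to 24912 in combination, 25141 to 27762 in GNE-781, 37145 to 45793 in A-485 and 54372 to 59468 in DMSO libraries, and its part in the results was not tested. Markers of T cells, monocytes, B cells, epithelium and fibroblasts were each at most 16.6 in any library, with the T cell gene CD3D at 0 in all 15. HBB, a red cell gene, lay between 26.7 and 37.9 in dCBP-1 libraries, against 75.9 to 147 in DMSO libraries, and its part in the results was not tested. The treated libraries had 14.3% to 17.0% of their reads on mitochondrial genes, whereas DMSO replicates 1, 2 and 3 had 23.1%, 19.7% and 16.4%. At an equal depth of 13.1 M reads, 18737 to 20488 genes had a read in treated libraries, whereas DMSO replicates 1, 2 and 3 gave 16245, 17374 and 19661, so replicates 1 and 2 differed from the rest in both measures. The counts for each comparison with DMSO are therefore also given without DMSO replicates 1 and 2, in a fit where the single remaining DMSO library is assumed to vary like the other groups. The median log2 fold change of all genes tested was then −0.12 for dCBP-1, −0.09 for the combination and −0.11 for GNE-781. With all DMSO libraries it was 0.07, 0.09 and 0.07, so values of single genes in that fit are read beside this downward shift.

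With dCBP-1, 17 of the 58 genes rose and 6 fell relative to DMSO, in limma with Benjamini-Hochberg adjustment over all genes tested at a threshold of 0.05. Among all 16104 genes 37.8% were called, 19.3% higher and 18.5% lower, so the rises among replication genes (29.3%) lay above that background and the falls (10.3%) below it. That background depends on the filter on low values. With the filter at 20, all genes gave 23.1% higher and 23.2% lower, and the 58 genes again 17 and 6. The changes were modest: the log2 fold changes ran from −1.01 for E2F2 to 1.06 for CLSPN, and the median was 0.11, beside 0.07 over all genes tested. In bulk RNA, fewer cells in a cell cycle phase and less RNA per cell cannot be told apart. The largest rises were in CLSPN, the checkpoint mediator claspin, in RRM1, the large subunit of ribonucleotide reductase, and in RFC4, a clamp loader subunit. The falls were in the transcription factors E2F2 and E2F3, the polymerase alpha and primase genes POLA1 and PRIM1, cyclin E1 (CCNE1) and DBF4. Without DMSO replicates 1 and 2, 7 genes rose and 6 fell, and 11 of the 23 calls were shared with the full fit. All genes tested then gave 7.75% higher and 15.8% lower, with a median log2 fold change of −0.12, beside 0.04 for the 58 genes. Without dCBP-1 replicate 3, 15 of the 23 calls remained, 12 higher and 3 lower, beside 15.2% and 15.7% of all genes tested.

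**Figure D1:**
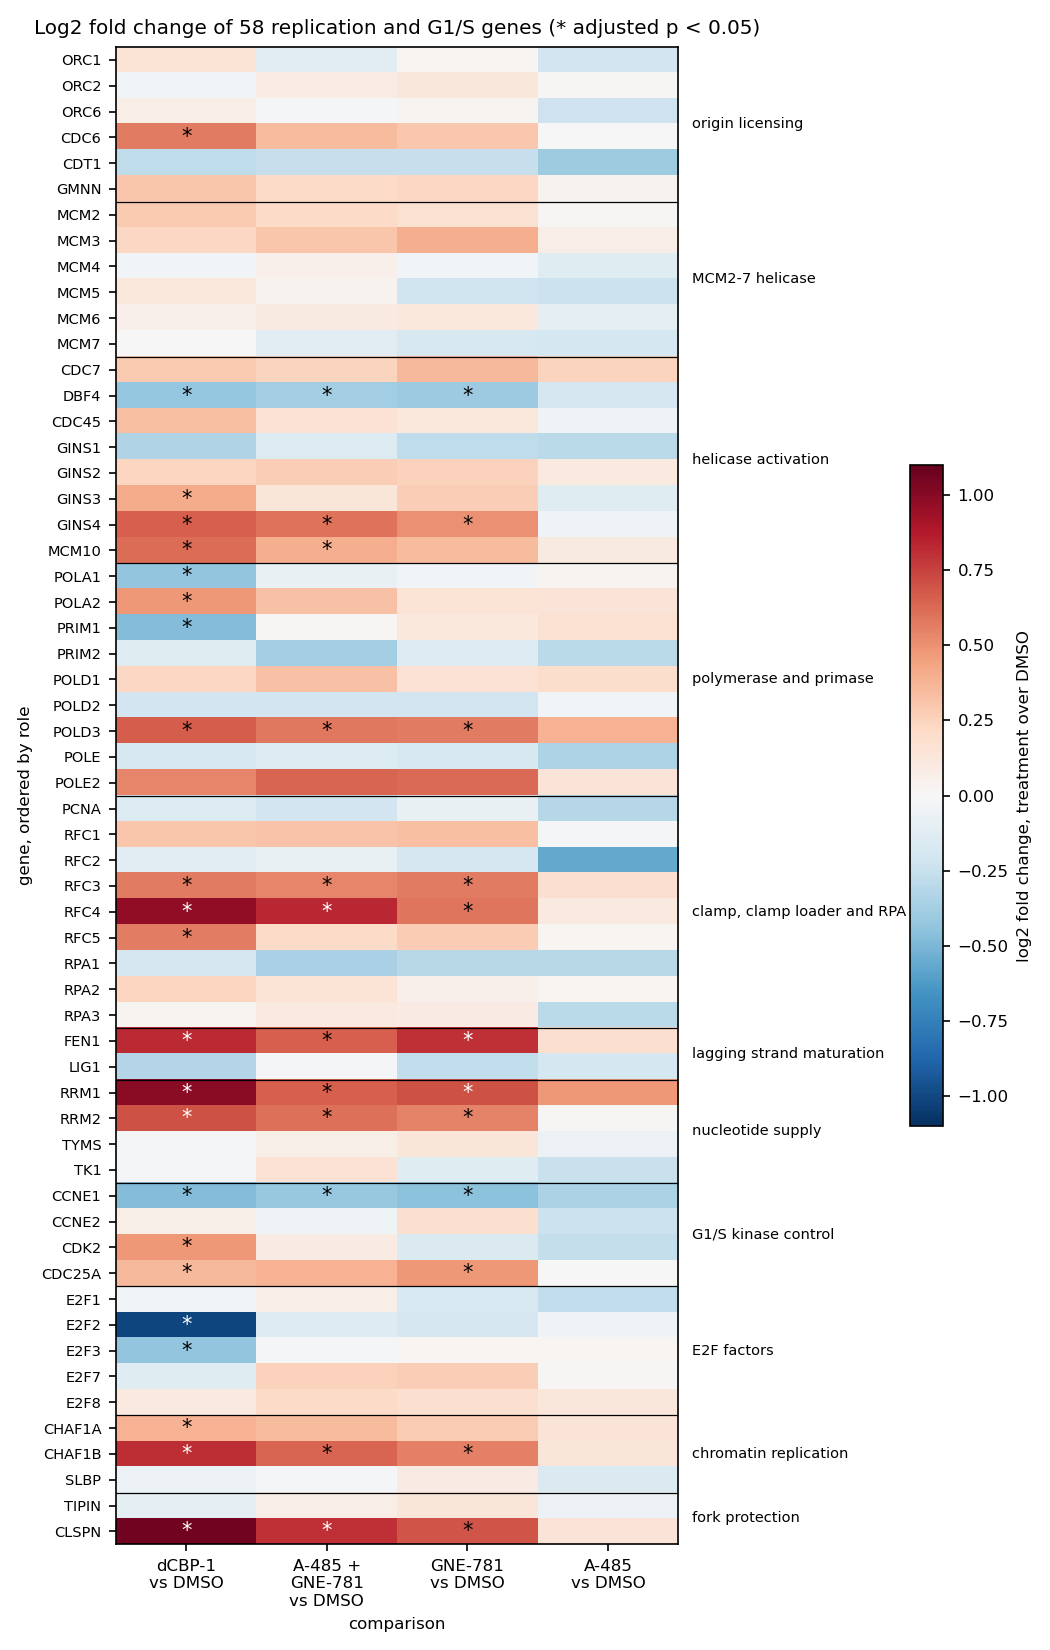
Log2 fold changes of the 58 genes (rows, grouped by role) in the 4 comparisons with DMSO (columns: dCBP-1, the combination, GNE-781 and A-485), with colour for the log2 fold change and an asterisk for a limma adjusted p below 0.05. The dCBP-1 column holds 17 rises and 6 falls, the combination and GNE-781 columns 10 rises and 2 falls each, and the A-485 column none.

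The E2F factors are the transcription factors of this programme, and 2 of the 5 fell with dCBP-1. E2F2, an activating E2F, had 935, 931 and 1041 normalized read counts in dCBP-1 libraries. It had 1669.8, 1833 and 1820.3 in combination libraries, 1769.7, 1573 and 1817 in GNE-781 libraries, 2038, 1999 and 1665 in A-485 libraries, and 1742, 1714 and 2489.6 in DMSO libraries. All 3 dCBP-1 libraries lay below all 12 others, and the inhibitor libraries overlapped those of DMSO. The log2 fold change of dCBP-1 against DMSO was −1.01 ± 0.14 (SE; limma adjusted p = 9.54e-07), 2.02-fold lower, and the gene fell in all alternatives tried, to −1.36 without DMSO replicates 1 and 2. E2F3, a second activating E2F, had 1565, 1426 and 1599 in dCBP-1 libraries, against 1872, 1872 and 2528 in DMSO libraries. These groups did not overlap, DMSO replicate 3 stood above the other two DMSO libraries, and the log2 fold change was −0.44 ± 0.13 (SE; limma adjusted p = 0.00856), or −0.29 (adjusted p = 0.0615) without that library. E2F1, the E2F most used as an S phase entry marker, had 1723, 1716 and 1464 in dCBP-1 libraries, against 1628, 1639.9 and 1741 in DMSO libraries. Its groups overlapped, with a log2 fold change of −0.03 and a 95% interval of −0.29 to 0.22 (limma adjusted p = 0.857). The repressor E2Fs, E2F7 and E2F8, had log2 fold changes of −0.13 (limma adjusted p = 0.537) and 0.11 (limma adjusted p = 0.686).

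The sequences just before the start sites of the 3 fallen genes that hold an E2F-type motif, E2F2, E2F3 and POLA1, are shown with MCM6, whose level did not pass the test, and with the risen genes CLSPN and RRM1. Each line gives the 250 bases upstream of the start, 5′ to 3′ on the gene's strand, from RefSeq on GRCh38.p14, and capitals mark the letters TTTCCCGC, TTTGGCGC, TTTCGCGC or TTTGCCGC on either strand. The positions are chr1:23531234-23531483 on the minus strand for E2F2, chr6:20401629-20401878 on the plus strand for E2F3, chrX:24693668-24693917 on the plus strand for POLA1, chr2:135876444-135876693 on the minus strand for MCM6, chr1:35769979-35770228 on the minus strand for CLSPN and chr11:4094435-4094684 on the plus strand for RRM1.
E2F2: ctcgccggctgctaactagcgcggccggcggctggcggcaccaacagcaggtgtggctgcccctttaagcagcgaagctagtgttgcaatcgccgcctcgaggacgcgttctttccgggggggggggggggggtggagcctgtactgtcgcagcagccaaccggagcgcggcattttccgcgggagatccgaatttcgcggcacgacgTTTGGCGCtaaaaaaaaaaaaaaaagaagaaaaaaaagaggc
E2F3: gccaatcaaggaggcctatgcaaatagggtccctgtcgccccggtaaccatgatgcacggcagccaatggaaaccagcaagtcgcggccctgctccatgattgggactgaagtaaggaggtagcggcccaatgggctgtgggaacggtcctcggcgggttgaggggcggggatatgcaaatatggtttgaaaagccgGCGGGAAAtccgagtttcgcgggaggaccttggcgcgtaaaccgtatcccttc
POLA1: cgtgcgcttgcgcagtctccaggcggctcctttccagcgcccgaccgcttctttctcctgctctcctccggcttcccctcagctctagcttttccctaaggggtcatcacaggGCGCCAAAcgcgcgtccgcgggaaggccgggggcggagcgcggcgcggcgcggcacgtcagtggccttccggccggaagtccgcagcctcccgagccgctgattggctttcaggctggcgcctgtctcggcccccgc
MCM6: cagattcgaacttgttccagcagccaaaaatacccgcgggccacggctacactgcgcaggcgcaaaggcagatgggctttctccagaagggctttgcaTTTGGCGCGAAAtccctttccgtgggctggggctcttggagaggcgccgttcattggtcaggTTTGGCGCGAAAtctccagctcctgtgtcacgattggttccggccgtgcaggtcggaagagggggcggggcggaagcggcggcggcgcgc
CLSPN: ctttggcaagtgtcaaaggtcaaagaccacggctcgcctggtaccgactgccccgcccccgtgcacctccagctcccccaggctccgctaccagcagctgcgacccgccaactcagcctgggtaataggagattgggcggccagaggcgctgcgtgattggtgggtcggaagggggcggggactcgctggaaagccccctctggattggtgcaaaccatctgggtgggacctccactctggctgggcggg
RRM1: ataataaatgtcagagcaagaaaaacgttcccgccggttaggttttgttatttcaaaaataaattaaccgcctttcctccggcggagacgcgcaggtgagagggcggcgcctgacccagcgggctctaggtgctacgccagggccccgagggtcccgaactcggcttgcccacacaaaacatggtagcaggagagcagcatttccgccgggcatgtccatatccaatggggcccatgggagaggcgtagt
The match began 42 bases before the start in E2F2, 53 in E2F3 and 137 in POLA1. MCM6 held 4 matches in 2 overlapping pairs, and neither CLSPN nor RRM1 held one. Promoter sequence was matched for 49 of the 58 genes, and 16 of these (32.7%) held an E2F-type motif, beside 761 of 27305 promoters of all genes (2.79%). By response to dCBP-1, the motif was in 3 of 14 risen genes, 3 of 6 fallen genes and 10 of 29 genes that did not pass the test, so it was present in each class. CCAAT was in 57.1% of the 49 promoters and 33.0% of all, the E-box CACGTG in 10.2% and 6.49%, and TTTGAA, the core of the cell cycle homology region, in 4.08% and 13.6%. A match describes letters and shows no binding.

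Among the 4 G1/S kinase genes, CDK2 and CDC25A rose with dCBP-1, CCNE1 fell, and CCNE2 did not pass the test. CDK2, the kinase that cyclin E activates, had 5824, 4959 and 4516 normalized read counts in dCBP-1 libraries, 3827, 3829.8 and 3927 in combination libraries, 3119.5, 3098 and 3564 in GNE-781 libraries, 3069.6, 3084 and 2938 in A-485 libraries, and 3823, 4032 and 3116 in DMSO libraries. All dCBP-1 libraries were above every other library, and the 3 inhibitor groups lay at or near the DMSO range. The log2 fold change against DMSO was 0.48 ± 0.13 (SE; limma adjusted p = 0.00344), and 0.70 without DMSO replicates 1 and 2. CCNE1 had 431, 436 and 577 in dCBP-1 libraries, 483, 490.0 and 519.8 in combination libraries, 447, 465 and 552 in GNE-781 libraries, 604, 532 and 444 in A-485 libraries, and 636, 723 and 641 in DMSO libraries. Every treated library was below every DMSO library, with log2 fold changes of −0.48 for dCBP-1 (limma adjusted p = 0.0133), −0.42 for the combination (0.0481), −0.45 for GNE-781 (0.0393) and −0.35 for A-485 (0.254). The dCBP-1 call was lost without DMSO replicate 2 (adjusted p = 0.0628) and without dCBP-1 replicate 1 (0.0709) or 2 (0.0683), and without DMSO replicates 1 and 2 together the 3 called values were −0.43 (0.155), −0.36 (0.345) and −0.40 (0.313). The combination call was lost in 9 of 17 alternatives and the GNE-781 call in 7, both with the replicate block (0.0724 and 0.0611), without DMSO replicate 1 or 2, and without some single treated libraries (each of the combination, replicate 1 or 2 of GNE-781). CCNE2, the second cyclin E, had 337, 309 and 340.3 in dCBP-1 libraries, against 283, 285 and 385 in DMSO libraries, overlapping groups with a log2 fold change of 0.06 (95% interval −0.30 to 0.43). CDC25A, the phosphatase that removes the inhibitory phosphates of CDK2, had 789, 918 and 1138 in dCBP-1 libraries, against 653, 772 and 785 in DMSO libraries. These did not overlap, but the call (log2 fold change 0.35, limma adjusted p = 0.0498) was lost in 8 alternatives, among them those without DMSO replicate 1 or 2 or dCBP-1 replicate 2 or 3, and it was 0.26 (0.368) without DMSO replicates 1 and 2 together.

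**Figure D2:**
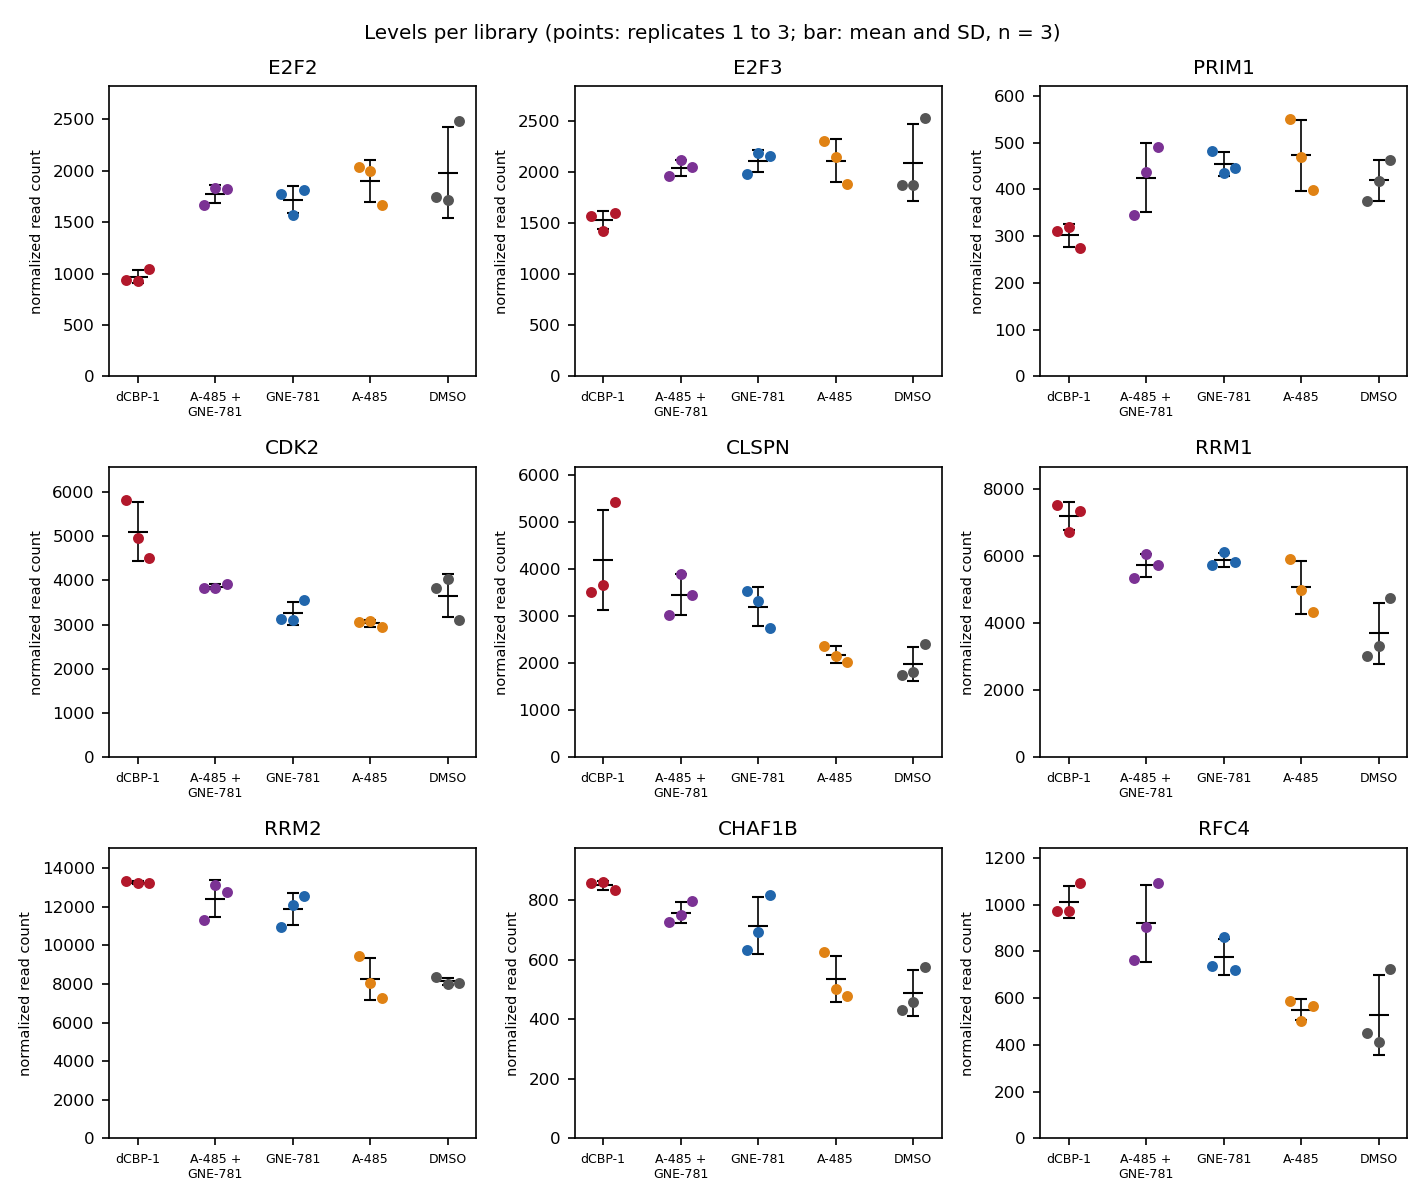
Normalized read counts (vertical axes, from 0) of 9 genes by library in the 5 groups, from dCBP-1 on the left to DMSO on the right, with 1 point per library in the order of replicates 1 to 3 and bars for the group mean and SD. E2F2 is lowest and CDK2 highest in the 3 dCBP-1 libraries, while DMSO replicate 3 lies above the other DMSO libraries for RRM1, RFC4 and CLSPN.

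Of the 6 origin licensing genes, CDC6 rose and the other 5 did not pass the test. CDC6, the ATPase that works with the origin recognition complex to load the helicase, had 2095, 2006 and 2059.5 normalized read counts in dCBP-1 libraries, 1542, 1841 and 1921 in combination libraries, 1707, 1783 and 1615 in GNE-781 libraries, 1548, 1304 and 1293 in A-485 libraries, and 1275, 1288 and 1605 in DMSO libraries. The dCBP-1 libraries were above all others, and the GNE-781 libraries were also all above DMSO. The log2 fold change was 0.57 ± 0.13 (SE; limma adjusted p = 0.000775) with dCBP-1, and 0.35 with the combination (limma adjusted p = 0.0527). Without DMSO replicates 1 and 2 the dCBP-1 value was 0.36 (adjusted p = 0.134). CDT1, the partner of CDC6 that geminin restrains, had 1151, 949 and 975 in dCBP-1 libraries, 999, 1037 and 1088 in combination libraries, 973, 1002 and 1155 in GNE-781 libraries, 924, 982 and 932 in A-485 libraries, and 1265, 1283 and 1179.8 in DMSO libraries. All 12 treated libraries were below all DMSO libraries, yet no comparison passed the test, with log2 fold changes from −0.39 for A-485 (limma adjusted p = 0.098) to −0.26 for the combination (0.151) and GNE-781 (0.168) and −0.28 for dCBP-1 (0.0777). GMNN, which encodes geminin, had a log2 fold change of 0.31 with dCBP-1 (limma adjusted p = 0.0615), and those of ORC1, ORC2 and ORC6, subunits of the origin recognition complex, lay between −0.03 and 0.15.

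None of the 6 genes of the MCM2-7 helicase passed the test against DMSO with any compound. MCM2 had 3422, 3546 and 2927 normalized read counts in dCBP-1 libraries, against 2393, 2374 and 3424 in DMSO libraries. MCM3 had 3648, 3584 and 5094 in dCBP-1 libraries, against 3336, 3110.0 and 3968 in DMSO libraries. MCM4 had 4402, 4345 and 4391 in dCBP-1 libraries, against 4853, 4038 and 4583 in DMSO libraries. The groups overlapped for each of these. MCM5 had 3333, 2966 and 3108 in dCBP-1 libraries, against 2721, 2942 and 3025 in DMSO libraries. MCM6 had 2674, 2542 and 2277 in dCBP-1 libraries, against 2275, 2341 and 2566 in DMSO libraries. MCM7 had 6151, 5429 and 5403 in dCBP-1 libraries, against 5301, 6035 and 5615 in DMSO libraries. These overlapped too. The 6 log2 fold changes with dCBP-1 ran from −0.03 (MCM4) to 0.29 (MCM2), and their 95% intervals together spanned −0.28 to 0.61. For the combination the intervals spanned −0.37 to 0.62, for GNE-781 −0.46 to 0.71 and for A-485 −0.47 to 0.39.

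**Figure D3:**
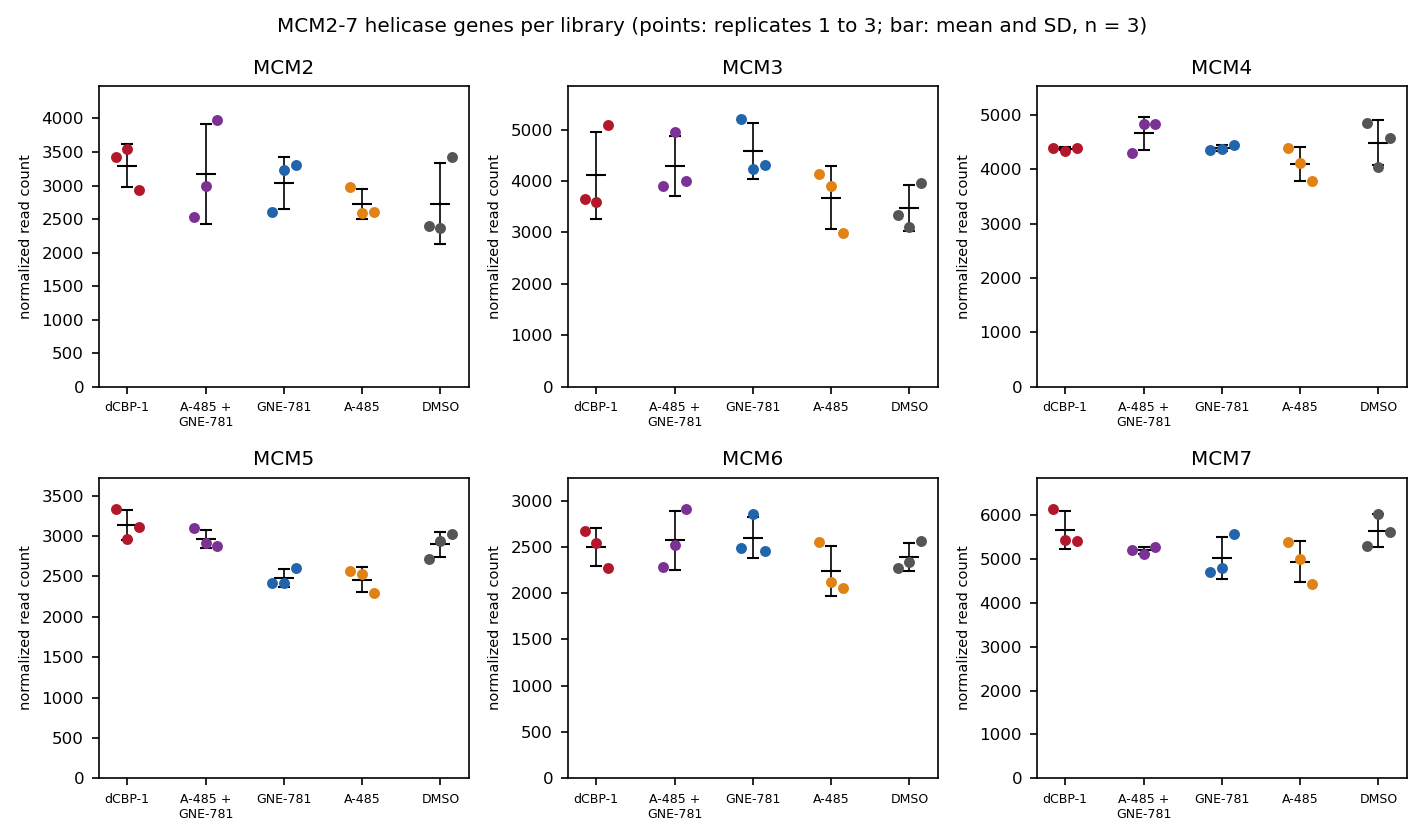
Normalized read counts (vertical axes, from 0) of MCM2 to MCM7 by library in the 5 groups, from dCBP-1 on the left to DMSO on the right, with 1 point per library and bars for the group mean and SD. The dCBP-1 and DMSO libraries overlap in all 6 panels.

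Of the 8 helicase activation genes, GINS3, GINS4 and MCM10 rose with dCBP-1 and DBF4 fell. GINS4, a subunit of the 4-member GINS complex, had 355, 413 and 390.1 normalized read counts in dCBP-1 libraries, 312, 397 and 404 in combination libraries, 292, 358 and 394 in GNE-781 libraries, 284, 227 and 205 in A-485 libraries, and 246, 262 and 225 in DMSO libraries. The dCBP-1, combination and GNE-781 libraries were all above the DMSO libraries, and those of A-485 overlapped DMSO. The log2 fold changes were 0.66 ± 0.17 for dCBP-1 (SE; limma adjusted p = 0.0026), 0.60 for the combination (0.012) and 0.50 for GNE-781 (0.0399). Without DMSO replicates 1 and 2 they were 0.78 (0.0158), 0.71 (0.0651) and 0.62 (0.126). The combination call was also lost without combination replicate 2 (0.0654) or 3 (0.0514), and the GNE-781 call in 9 of 17 alternatives, among them the replicate block (0.0589), each single DMSO library left out, and GNE-781 replicate 2 or 3 left out. MCM10, which binds the helicase as it opens the origin, had 2223, 2168 and 2623 in dCBP-1 libraries, 1802, 2234 and 2009 in combination libraries, and 1626, 1287 and 1682 in DMSO libraries. Both treated groups were above DMSO, with log2 fold changes of 0.61 (limma adjusted p = 0.00066) and 0.40 (0.0358), and the values without DMSO replicates 1 and 2 were 0.47 (0.059) and 0.25 (0.452). DBF4, the regulatory subunit of the CDC7 kinase, had 2635, 2452 and 2241 in dCBP-1 libraries, 2342, 2563 and 2645 in combination libraries, 2338, 2517 and 2602 in GNE-781 libraries, 3479.6, 2712 and 2549 in A-485 libraries, and 2803, 3272 and 3819 in DMSO libraries. The first 3 groups lay below all DMSO libraries and A-485 overlapped them, with log2 fold changes of −0.42 (limma adjusted p = 0.0137), −0.38 (0.0436) and −0.40 (0.0417). Without DMSO replicate 3, the highest of the DMSO libraries, they were −0.31, −0.27 and −0.29, and none passed the test (adjusted p = 0.0694, 0.148 and 0.133). GINS3 rose by 0.41 with dCBP-1 (limma adjusted p = 0.0367), a call lost whenever 1 DMSO library was left out, and without dCBP-1 replicate 2 or 3. With both DMSO replicates 1 and 2 left out its value was 0.45 (adjusted p = 0.139). CDC7, CDC45, GINS1 and GINS2 had log2 fold changes from −0.33 to 0.33 and did not pass the test.

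The 9 polymerase and primase genes divided, with POLD3 and POLA2 higher and PRIM1 and POLA1 lower with dCBP-1. PRIM1, the catalytic primase subunit, had 311, 319 and 274 normalized read counts in dCBP-1 libraries, 346, 438 and 491 in combination libraries, 482, 434 and 447 in GNE-781 libraries, 551, 468 and 399 in A-485 libraries, and 376, 419 and 464 in DMSO libraries. The dCBP-1 libraries were the lowest 3 of all 15, and the other groups overlapped each other. The log2 fold change was −0.47 ± 0.16 (SE; limma adjusted p = 0.02) against DMSO, and −0.62 without DMSO replicates 1 and 2, but the call was lost without DMSO replicate 3 (−0.40, adjusted p = 0.0662) and without dCBP-1 replicate 3 (−0.41, 0.0833). POLA1, the catalytic subunit of polymerase alpha, had 1569, 1245 and 1322 in dCBP-1 libraries, against 1478, 1805 and 2373 in DMSO libraries. The groups overlapped, DMSO replicate 3 was far above the others, and the log2 fold change of −0.43 (limma adjusted p = 0.0193) became −0.25 (0.151) without that library. POLA2, the accessory subunit of the same enzyme, rose by 0.48 (limma adjusted p = 0.0148), and by 0.16 (0.61) without DMSO replicates 1 and 2. POLD3, an accessory subunit of polymerase delta, had 1517, 1413 and 1679 in dCBP-1 libraries, 1379, 1673 and 1303 in combination libraries, 1491, 1459 and 1372 in GNE-781 libraries, and 791, 800.4 and 1429.9 in DMSO libraries. DMSO replicate 3 lay inside the range of the treated libraries and the other 2 DMSO libraries far below it. The log2 fold changes were 0.66 (limma adjusted p = 0.00191), 0.58 (0.0124) and 0.57 (0.0161), and without DMSO replicates 1 and 2 they were 0.10, 0.01 and 0.01, none passing the test. PRIM2, POLD1, POLD2, POLE and POLE2 did not pass the test with dCBP-1, with log2 fold changes from −0.21 to 0.54.

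Of the clamp, clamp loader and RPA genes, 3 of 9 rose with dCBP-1, and all 3 were small subunits of replication factor C. RFC4 had 971, 970.1 and 1092 normalized read counts in dCBP-1 libraries, 761, 904 and 1091 in combination libraries, 738, 863 and 722 in GNE-781 libraries, 586, 503 and 564 in A-485 libraries, and 449.7, 410.2 and 726 in DMSO libraries. The dCBP-1 and combination libraries were above all DMSO libraries, while DMSO replicate 3 reached the lower GNE-781 libraries. The log2 fold changes were 0.98 ± 0.17 for dCBP-1 (SE; limma adjusted p = 3.19e-05), 0.83 for the combination (0.000773) and 0.59 for GNE-781 (0.0157), and without DMSO replicates 1 and 2 they were 0.48 (0.0793), 0.32 (0.365) and 0.09 (0.859). RFC3 had 839, 749.6 and 984 in dCBP-1 libraries, 713, 1006 and 802 in combination libraries, 945, 863 and 762 in GNE-781 libraries, and 563, 496 and 676 in DMSO libraries. All 3 treated groups were above DMSO, with log2 fold changes of 0.57 (limma adjusted p = 0.00887), 0.54 (0.0247) and 0.57 (0.0207), and 0.33, 0.30 and 0.34 without DMSO replicates 1 and 2, none passing the test. RFC5 had 610.0, 566 and 509.8 in dCBP-1 libraries, against 328, 419 and 397 in DMSO libraries. These did not overlap, with a log2 fold change of 0.56 (adjusted p = 0.00386), or 0.50 (0.0747) without DMSO replicates 1 and 2. PCNA, the sliding clamp and a widely used proliferation marker, had 3682, 4182 and 2664 in dCBP-1 libraries, 2426, 2972 and 5021 in combination libraries, 2866, 4254 and 3925 in GNE-781 libraries, 3969.8, 2360.2 and 3143 in A-485 libraries, and 3657, 4025 and 3831 in DMSO libraries. The treated libraries spread to both sides of DMSO, and the log2 fold change with dCBP-1 was −0.15 with a 95% interval of −0.57 to 0.26. RFC1, RFC2 and the RPA genes, which coat single-stranded DNA, had log2 fold changes with dCBP-1 from −0.19 to 0.31 and did not pass the test.

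The ribonucleotide reductase genes rose together, and the thymidylate genes did not pass the test. RRM1 had 7517, 6699 and 7337 normalized read counts in dCBP-1 libraries, 5353, 6050.3 and 5734 in combination libraries, 5723, 6105 and 5807 in GNE-781 libraries, 5891, 4981 and 4314 in A-485 libraries, and 3028, 3301 and 4729 in DMSO libraries. The dCBP-1 libraries were above all others and the combination and GNE-781 libraries above all DMSO libraries, of which replicate 3 was the highest. The log2 fold changes were 0.99 ± 0.14 for dCBP-1 (SE; limma adjusted p = 2.86e-06), 0.66 for the combination (0.00157), 0.70 for GNE-781 (0.0012) and 0.47 for A-485 (0.0822). Without DMSO replicates 1 and 2 the first 3 were 0.60 (0.0111), 0.27 (0.39) and 0.31 (0.326). RRM2, the small subunit whose level follows S phase, had 13333, 13218 and 13212 in dCBP-1 libraries, 11339, 13154 and 12756 in combination libraries, 10955, 12115 and 12560.3 in GNE-781 libraries, 9446, 8043 and 7266 in A-485 libraries, and 8361, 8013 and 8069 in DMSO libraries. The DMSO libraries lay close together here, every library of the first 3 groups was above them, and the A-485 libraries spread to both sides. The log2 fold changes were 0.70 ± 0.13 for dCBP-1 (SE; limma adjusted p = 7.65e-05), 0.61 for the combination (0.00123) and 0.54 for GNE-781 (0.00442), and 0.72, 0.62 and 0.56 without DMSO replicates 1 and 2 (0.00312, 0.0286 and 0.0576). TYMS, thymidylate synthase, and TK1, thymidine kinase, both had a log2 fold change of −0.02 with dCBP-1, with 95% intervals of −0.30 to 0.27 and −0.29 to 0.26.

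FEN1, the flap nuclease that trims Okazaki fragments, had 3594, 4303 and 6125 normalized read counts in dCBP-1 libraries, 3492, 5274 and 3699.7 in combination libraries, 4826, 4463 and 4259 in GNE-781 libraries, 3326, 3166 and 2342 in A-485 libraries, and 2479, 2278 and 3050.3 in DMSO libraries. The first 3 groups lay above DMSO and A-485 overlapped it, with log2 fold changes of 0.82 (limma adjusted p = 0.000364), 0.66 (0.00664) and 0.80 (0.00169), and 0.58 (0.0826), 0.42 (0.336) and 0.56 (0.188) without DMSO replicates 1 and 2. LIG1, the ligase that joins the fragments, had a log2 fold change of −0.32 with dCBP-1 (limma adjusted p = 0.0895). CLSPN had 3513, 3659 and 5428 in dCBP-1 libraries, 3027, 3906 and 3463 in combination libraries, 3545, 3332 and 2742 in GNE-781 libraries, 2376, 2154 and 2024 in A-485 libraries, and 1762, 1813 and 2412 in DMSO libraries. As for FEN1, dCBP-1 replicate 3 was the highest library, the first 3 groups were above DMSO, and DMSO replicate 3 reached the A-485 libraries. The log2 fold changes were 1.06 ± 0.16 for dCBP-1 (SE; limma adjusted p = 3.09e-06), a 2.08-fold rise, 0.80 for the combination (0.000463) and 0.69 for GNE-781 (0.00268), and 0.77 (0.00786), 0.51 (0.148) and 0.40 (0.296) without DMSO replicates 1 and 2. TIPIN, which acts in the same fork protection pathway, had a log2 fold change of −0.11 with dCBP-1 (limma adjusted p = 0.62).

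CHAF1B and CHAF1A encode subunits of chromatin assembly factor 1, which places histones behind the fork. CHAF1B had 857, 860.2 and 834 normalized read counts in dCBP-1 libraries, 728, 751 and 797 in combination libraries, 633, 692 and 819.6 in GNE-781 libraries, 626, 501 and 480.0 in A-485 libraries, and 431, 459 and 575 in DMSO libraries. The dCBP-1 libraries were above all others, and the combination and GNE-781 libraries above DMSO, with log2 fold changes of 0.81 ± 0.15 (SE; limma adjusted p = 5.53e-05), 0.64 (0.002) and 0.55 (0.0093), and 0.56 (0.0324), 0.40 (0.235) and 0.30 (0.41) without DMSO replicates 1 and 2. CHAF1A had 3678, 3376 and 3909 in dCBP-1 libraries, against 2335, 2511 and 3714 in DMSO libraries. DMSO replicate 3 lay inside the dCBP-1 range, and the log2 fold change of 0.39 (limma adjusted p = 0.0285) became −0.03 (0.928) without DMSO replicates 1 and 2. SLBP, the histone mRNA binding protein, had a log2 fold change of −0.06 (adjusted p = 0.765).

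For 12 of the 17 genes that rose with dCBP-1, DMSO replicate 3 was the DMSO library closest to the dCBP-1 mean, and for none of the 6 that fell. By median ratios over genes at large, the values of that library stood at 1.09, against 0.947 and 0.963 for DMSO replicates 1 and 2. The part of this level in the split was not tested, and the closest library was not counted over all genes called. The 58 genes together held 0.745%, 0.747% and 0.729% of the summed values of the dCBP-1 libraries, 0.670%, 0.678% and 0.672% of the combination, 0.658%, 0.683% and 0.674% of GNE-781, 0.604%, 0.586% and 0.593% of A-485, and 0.535%, 0.546% and 0.563% of DMSO. By share, the dCBP-1 libraries were thus the highest, the combination and GNE-781 overlapped, and the A-485 libraries lay between these and DMSO. The summed values themselves did not give that order. They were 101688, 89577.9 and 82384.5 in A-485 libraries, overlapping 89021.6, 90383.4 and 102336 in DMSO libraries. The combination (97598.2, 112426 and 113135) also overlapped DMSO. GNE-781 (102529, 106895 and 106996) and dCBP-1 (111690, 109102 and 113230) lay above it. The part of the DMSO libraries' mitochondrial share in these values was not tested. In total 7 of the 23 dCBP-1 calls (CLSPN, E2F2, RRM1, CHAF1B, RRM2, GINS4 and CDK2) held in all alternatives tried. The share of all genes called that held in this way was not counted.

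The combination addressed what both inhibitors together did. Relative to DMSO 10 genes rose and 2 fell, beside 11.4% and 9.6% of all genes tested (21% in either direction; 17.2% and 3.45% of the 58), and the median log2 fold change was 0.12, beside 0.09 over all genes. The risen genes were RFC4, CLSPN, FEN1, RRM1, CHAF1B, RRM2, GINS4, POLD3, RFC3 and MCM10, and the fallen ones CCNE1 and DBF4, with the values given above. Leaving out combination replicate 2 gave 5.5% higher and 7.23% lower of all genes. Without combination replicate 2, 5 of the calls remained, and without DMSO replicates 1 and 2, 3 genes passed the test (2 higher and 1 lower, beside 1.76% and 4.84% of all genes), of which RRM2 and DBF4 were shared.

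GNE-781 alone gave the same counts, 10 higher and 2 lower, beside 7.82% and 8.81% of all genes tested (16.6% in either direction), with a median of 0.13 beside 0.07. The rises were those of the combination with CDC25A, at 1100.3, 987 and 985 in GNE-781 libraries against 653, 772 and 785 in DMSO libraries, in place of MCM10. CDC25A did not overlap between the groups and had a log2 fold change of 0.48 (adjusted p = 0.0198), a call lost without DMSO replicate 1 (0.0942), GNE-781 replicate 1 (0.102) or DMSO replicates 1 and 2 (0.283), while the value for MCM10 was 0.35 (0.0767). CCNE1 and DBF4 again fell. In all, 9 genes rose and 2 fell with dCBP-1, with the combination and with GNE-781, comparisons that share the DMSO libraries. Calls shared by these comparisons were not counted over all genes tested, so this joint count has no background beside it. The count for GNE-781 was 5 without DMSO replicate 1, beside 4.81% higher and 8.19% lower of all genes. It was 7 without DMSO replicate 2 (3.92% and 6.06%) or GNE-781 replicate 1 (3.84% and 5.27%), and 6 without GNE-781 replicate 2 (4.2% and 6.04%). Without DMSO replicates 1 and 2, none rose and 2 fell, beside 0.987% and 4.5% of all genes, DBF4 being the shared call.

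With A-485 alone 0 of the 58 genes passed the test in limma, beside 0.348% higher and 1.79% lower of all genes (2.14% in either direction). At an unadjusted p under 0.05 there were 9 of the 58 genes and 2525 genes in all. On recovered reads edgeR called 1 of the 58, beside 0.807% higher and 1.45% lower of all genes. DESeq2 on recovered reads called 2, beside 1.87% and 3.43%. Without DMSO replicate 3, 4 were called, beside 4.24% and 2.83%. In 10 of the 58 genes every A-485 library was below every DMSO library, and the other 48 overlapped. How often this happens was not counted over all genes tested. RFC2, a clamp loader subunit and 1 of these 10, had 255, 211 and 193 normalized read counts in A-485 libraries, against 406, 293 and 282 in DMSO libraries. Its log2 fold change was −0.56 ± 0.18 (SE; limma adjusted p = 0.0908). RRM1 had the largest positive value, 0.47 (limma adjusted p = 0.0822). The 95% intervals of the 58 genes reached at most 0.920 from 0, with a median bound of 0.452. Without DMSO replicates 1 and 2 again 0 of the 58 genes passed, beside 0.0373% of all genes in each direction.

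dCBP-1 was then set against each inhibitor treatment at the same dose and time, with fold changes that use no DMSO library, although DMSO libraries enter the shared estimate of the spread. Against the combination, E2F2 had a log2 fold change of −0.87 (adjusted p = 4.09e-05) and was the 1 gene of 58 that passed the test, beside 0.553% higher and 5.61% lower of all genes (6.17% in either direction). CDK2 had a log2 fold change of 0.39 (95% interval 0.13 to 0.65, limma adjusted p = 0.065), E2F3 of −0.42 (0.0525) and PRIM1 of −0.48 (0.0739), and none of their dCBP-1 libraries overlapped those of the combination. They were among 9 uncalled genes higher and 4 lower in every dCBP-1 library than in every combination library. The share of all genes tested separated in this way was not counted. With TMM scaling 2 higher and 3 lower were called, beside 2.09% and 6.36% of all genes. Median-ratio scaling gave 3 and 3, beside 2.04% and 6.48%. DESeq2 on recovered reads gave 4 and 3, beside 3.58% and 7.31%, and E2F2 was among the calls each time. The count was 2 without combination replicate 1 (0.242% and 5.89% of all genes) or dCBP-1 replicate 3 (0.46% and 4.69%).

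Against GNE-781, to which the bromodomain binder of dCBP-1 is related, 1 gene rose and 3 fell, beside 2.19% and 7.13% of all genes (9.31% in either direction). CDK2 rose by 0.64 (limma adjusted p = 0.000715), and E2F2 fell by 0.83 (7.35e-05), PRIM1 by 0.59 (0.0144) and E2F3 by 0.46 (0.0198). The libraries of the 2 groups did not overlap for any of the 4 genes, and E2F2 and CDK2 passed in all alternatives tried. Of the genes not called, 9 were higher and 3 lower in every dCBP-1 library than in every GNE-781 library. Such separation was not counted over all genes tested. PRIM1 was lost without GNE-781 replicate 1 (adjusted p = 0.0769) or dCBP-1 replicate 3 (0.0724), and E2F3 without GNE-781 replicate 2 (0.0908) or 3 (0.0773) or dCBP-1 replicate 1 (0.0504) or 2 (0.108). With TMM scaling, and likewise with only the groups compared in the fit, 3 rose and 5 fell. Of all genes 4.47% rose and 8.74% fell with TMM scaling, and 5.6% and 9.28% with only the groups compared. CLSPN and RFC4 had log2 fold changes of 0.37 (95% interval 0.05 to 0.69, limma adjusted p = 0.154) and 0.39 (0.04 to 0.73, 0.171), and those of FEN1 and RFC3 were 0.02 (−0.34 to 0.37) and −0.00 (−0.35 to 0.35).

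Against A-485, 13 genes rose and 4 fell, beside 12.9% and 11.6% of all genes (24.5% in either direction; 22.4% and 6.9% of the 58), with a median of 0.23 beside 0.08. The largest rises were CLSPN at 0.92 (limma adjusted p = 4.78e-05), RFC4 at 0.88 (0.000246), CDK2 at 0.74 (5.34e-05) and GINS4 at 0.70 (0.0024), and E2F2 fell by 0.97 (3.53e-06) and PRIM1 by 0.64 (0.00345). The groups did not overlap for any of the 17 genes, nor for 10 of the genes not called. How often groups do not overlap was not counted over all genes tested. MCM5, with 3333, 2966 and 3108 normalized read counts in dCBP-1 libraries against 2567, 2526 and 2288 in A-485 libraries, was the helicase gene that rose, by 0.35 (limma adjusted p = 0.026), and the call was lost in 6 alternatives. CLSPN, RFC4, CDK2, GINS4, RRM2, CHAF1B, CDC6, MCM10, E2F2 and PRIM1 passed in all alternatives tried, 10 of the 17, a share not counted over all genes called. No setting moved this count by more than 1.5 times.

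**Figure D4:**
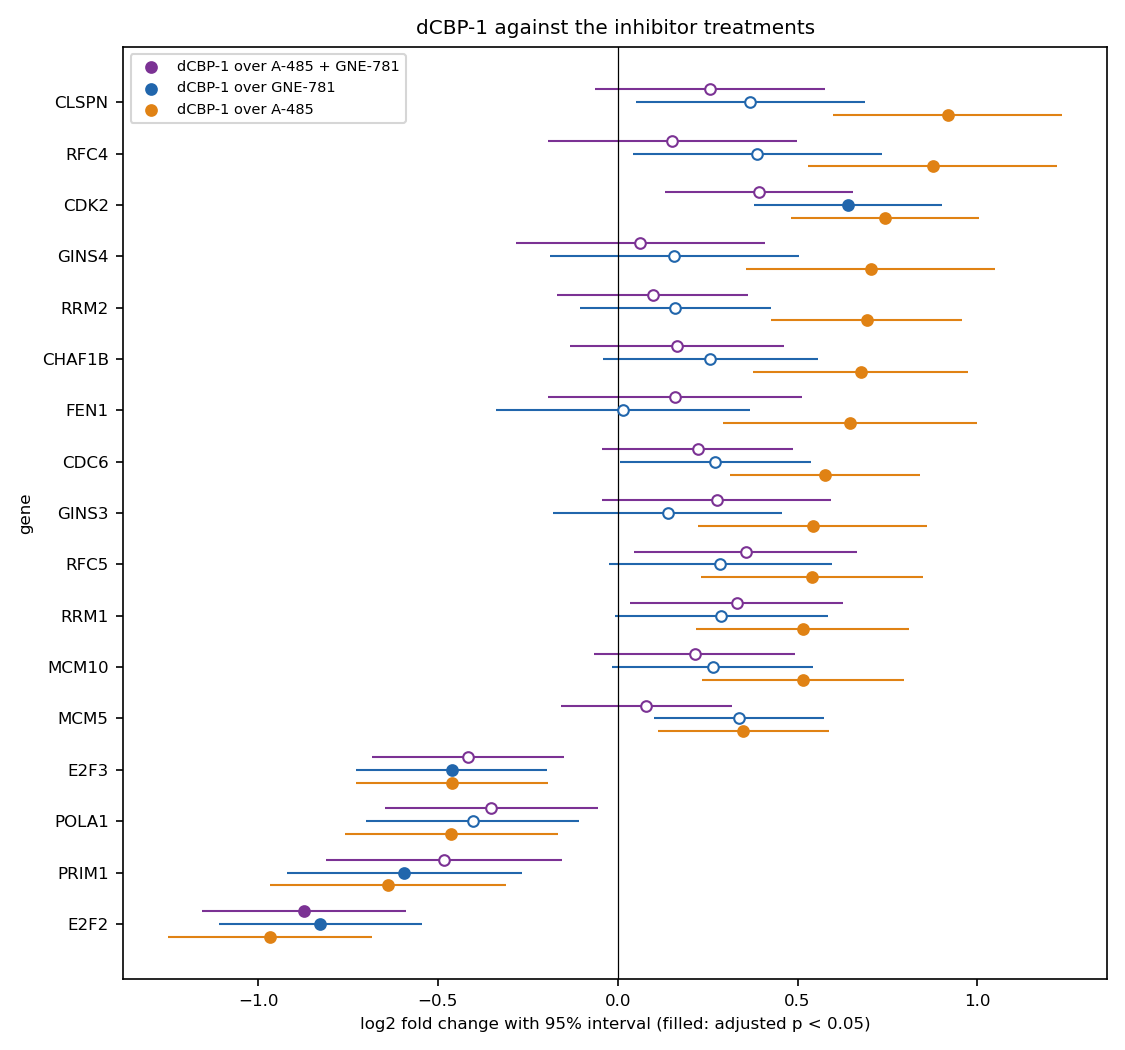
Log2 fold changes (horizontal axis) with 95% intervals of dCBP-1 over the combination, GNE-781 and A-485 for the 17 genes called in any of these 3 comparisons (rows), with filled points for a limma adjusted p below 0.05. E2F2 lies below 0 with a filled point in all 3 comparisons, at −0.87, −0.83 and −0.97, and 13 genes are called higher than with A-485.

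Between the inhibitor treatments few genes passed the test. The combination against GNE-781 gave 0 of 58 genes in limma, edgeR and DESeq2, beside 0% of all genes in limma, with 2 of the 58 and 494 of all genes at an unadjusted p under 0.05. The combination against A-485 gave 5 higher and 0 lower, beside 1.63% and 1.57% of all genes, or 3.2% in either direction: RFC4 at 0.72 (limma adjusted p = 0.0128), CLSPN at 0.66 (0.014), GINS4 at 0.64 (0.0309), RRM2 at 0.59 (0.00796) and CHAF1B at 0.51 (0.0478). The groups did not overlap for any of them, nor for 13 of the genes not called, and this was not counted over all genes tested. Without combination replicate 2 none passed, beside 0.292% higher and 0.869% lower of all genes. Without A-485 replicate 2 there was 1, beside 0.652% and 1.01%. There were 2 without A-485 replicate 3 (0.497% and 1.43%) or combination replicate 3 (0.782% and 1.7%). GNE-781 against A-485 gave RRM2 alone, higher by 0.53 (limma adjusted p = 0.0375), beside 0.273% higher and 0.727% lower of all genes, or 1% in either direction, and it was lost without A-485 replicate 2 or 3 and whenever 1 GNE-781 library was left out.

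**Figure D5:**
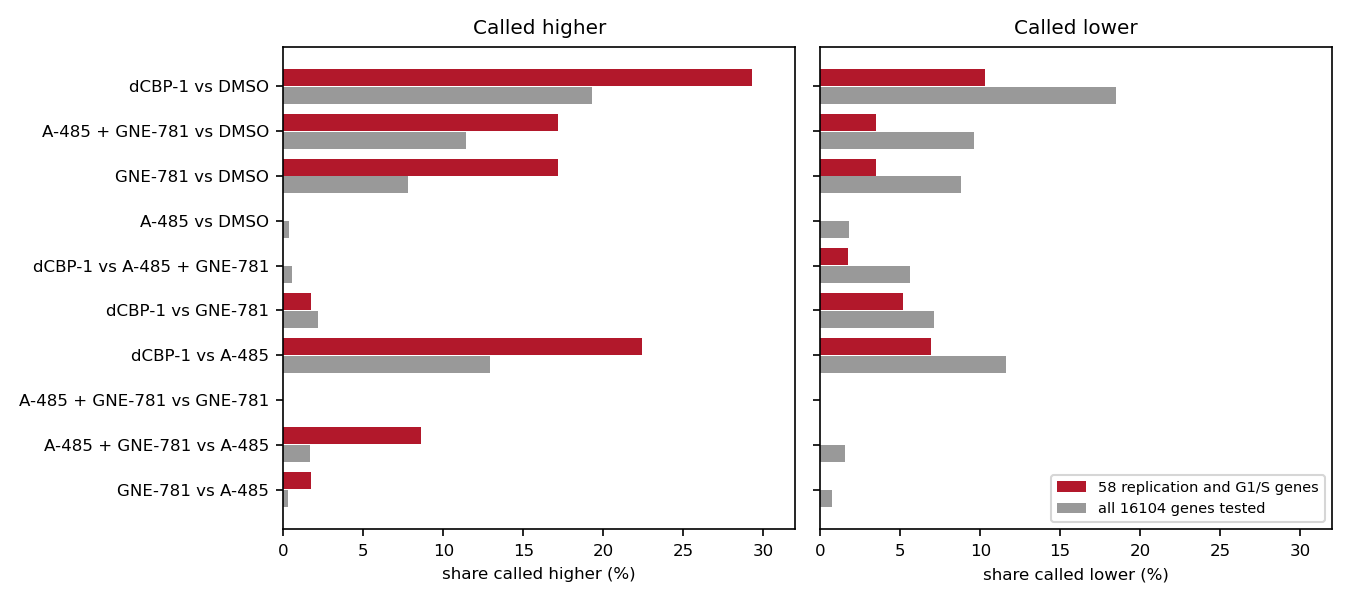
Share called (horizontal axes, percent) of the 58 genes and of all 16104 genes tested in each of the 10 comparisons, higher on 1 panel and lower on the other. The share of rises is 29.3% for the 58 genes and 19.3% for all genes with dCBP-1 against DMSO, and the share of falls is 10.3% and 18.5%.

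Related genes outside the 58 were read in lists with dCBP-1 against DMSO. Of all genes tested 19.3% rose and 18.5% fell in that comparison, and 7.75% and 15.8% without DMSO replicates 1 and 2. Of 22 other nucleotide synthesis genes 0 rose and 11 fell, with a median log2 fold change of −0.34, in contrast in sign to the rises of RRM1 and RRM2. The purine synthesis genes PPAT, PAICS and GART had log2 fold changes of −1.12, −1.11 and −0.89 (adjusted p = 4.92e-07, 3.96e-07 and 5.92e-06), and CTPS1, which makes CTP, fell by 0.63 (0.000196). NME1 fell by 0.63 (9.05e-05) and shares a readthrough transcript with its neighbour NME2, so that their reads may be divided uncertainly. These 5 passed in all alternatives tried, and 9 of the list fell without DMSO replicates 1 and 2. Of 13 tested E2F, RB and DREAM genes 2 rose and 3 fell. MYBL2, an E2F target that acts with the MuvB core of DREAM before mitosis, fell by 1.08 (limma adjusted p = 1.71e-07) and E2F5, a repressor E2F, fell by 1.69 (0.00312), while MYBL1 rose by 0.96 (0.000848) and TFDP2, an E2F partner, by 1.16 (0.00196). All 4 passed in all alternatives tried, and RB1 fell by 0.58 (0.0229), a call lost without DMSO replicate 1 or dCBP-1 replicate 3.

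The lists of other S phase and mitotic genes are read against the same shares of all genes. Of 28 other replication genes 8 rose and 2 fell, against 1 and 3 without DMSO replicates 1 and 2. TOP2A, the topoisomerase of mitotic chromosomes, rose by 0.91 (limma adjusted p = 0.000106), TIMELESS, the partner of TIPIN, by 0.59 (0.00106), RECQL4, a helicase, by 0.70 (0.00256) and ORC4 by 0.79 (0.000815), and SUPT16H, a histone chaperone subunit, fell by 0.59 (0.00167). ORC4 and SUPT16H passed in all alternatives, and without DMSO replicates 1 and 2 TOP2A had 0.34 (0.165), TIMELESS 0.41 (0.112) and RECQL4 0.06 (0.858). Of 24 checkpoint and repair genes 6 rose and 2 fell, or 1 and 0 without DMSO replicates 1 and 2. Of 11 chromatin assembly genes 4 rose, among them ATAD2 at 0.82 (1.18e-05) and ASF1B at 0.94 (5.17e-05), and 1 rose and 1 fell without those libraries. ATAD2 was then 0.67 (0.00675) and ASF1B 0.40 (0.135). Of 20 G2/M genes 11 rose and 3 fell, with NDC80, a kinetochore gene, at 1.35 (2.85e-07), AURKA at 0.95 (1.71e-05), CCNB2 at 0.93 (3.69e-06), CDC25C, a phosphatase of mitotic entry, at 1.002 (3.92e-06) and CDK1 at 0.75 (7.84e-05), and 4 rose and 2 fell without those libraries. NDC80, CCNB2 and CDC25C passed in all alternatives tried, while AURKA and CDK1 did not, at 0.48 and 0.41 without those libraries. The fallen genes BUB1 and BUB1B, at −0.55 (limma adjusted p = 0.00188) and −0.57 (0.00127), also passed in all alternatives tried.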

How the data were processed

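RNA from 15 MM.1S libraries was made into 3′ end libraries with the Lexogen QuantSeq kit and spike-ins were added at lysis, per the labels' protocols. Each deposited value is a signal for 1 gene in 1 library (normalized read counts in the authors' words), on hg19 per the submitters' processing notes. Aligner, annotation, counting strand and normalization are not given in the sources used here, so reads of antisense or overlapping genes cannot be told apart. Tested on the values, 100% were whole multiples of 1 step per library within 0.01 of a read, so reads were recovered by dividing by that step. The table used here has no spike-in rows, so no value is RNA per cell. A 3′ end count does not scale with transcript length, and levels are not compared between genes. Symbols matched 45779 of 47459 identifiers (96.5%).

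Genes reaching 5 in 3 or more of the 15 libraries were tested with limma-trend (limma 3.58.1, R 4.3.3) on log2(value + 1), in 1 model of 5 group means, two-sided, with Benjamini-Hochberg adjustment over 16104 genes in each of 10 comparisons and none across comparisons. The text says rose or fell at an adjusted p below 0.05. Alternatives were scaling by TMM or median ratios, a pseudocount of 0.25 or 5, dropping the filter or raising it to 20, fitting the compared groups by themselves, a replicate block, edgeR 4.0.16 and DESeq2 1.42.0 on recovered reads, and libraries left out. Fits were also run on simulated data with the same spread setting for all genes and no deviating library. Such data cannot speak to libraries that differ from their group. Recovered reads of replicates differed beyond counting noise (chi-square 5.61 to 46.5 per degree of freedom). No pairing by replicate number was seen in the values: deviations of same-numbered libraries correlated at −0.157 to 0.0995 (30 pairs). The genes and lists were chosen with earlier results of these data known. Values by library are given for called genes whose groups do not overlap, up to 16 by size for dCBP-1 against DMSO and up to 6 elsewhere, and for E2F1, the cyclin E genes, CDC6, CDT1, MCM2 to MCM7, PCNA and RRM2. The 5 genes of smallest p are named per list, or fewer. POLA1, POLD3, CHAF1A, CDC25A, DBF4, RFC2, BUB1 and BUB1B were added after their values were seen. In 2 combination libraries a treatment field gives the inhibitor another compound number than the title, and titles and the treatment protocol were followed. The molecule field says genomic DNA whereas the titles say RNA-Seq, and here too the titles were followed.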

Additional observations from a re-analysis of the deposited data

How the results depend on the processing

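Of 1247 recomputed log2 fold changes of called genes, 1055 kept direction and call, 191 kept direction and lost the call, and 1 reversed, CHAF1A with dCBP-1 against DMSO at −0.026 without DMSO replicates 1 and 2. Without these 2 libraries the called genes numbered 13 for dCBP-1, 3 for the combination and 2 for GNE-781 against DMSO, in place of 23, 12 and 12. With single libraries left out, the counts ran from 15 to 22 for dCBP-1, 5 to 15 for the combination, 5 to 14 for GNE-781 and 0 to 4 for A-485 against DMSO, from 1 to 2 for dCBP-1 against the combination, and 3 throughout against GNE-781. They ran from 13 to 20 for dCBP-1 against A-485, 0 to 5 for the combination against A-485 and 0 to 1 for GNE-781 against A-485. The shares of all genes moved in these fits too. Against DMSO, the share higher ran from 15.1% to 23% for dCBP-1, 5.5% to 17.7% for the combination and 3.84% to 14.7% for GNE-781. The share lower ran from 15.7% to 18.4%, 6.75% to 9.77% and 5.27% to 8.19%. For A-485 against DMSO the shares ran from 0.0373% to 4.24% higher and 0.354% to 2.83% lower. Those of dCBP-1 against A-485 ran from 7.85% to 14.3% higher and 9.03% to 11.2% lower. For A-485 against DMSO, in place of 0, TMM scaling, median-ratio scaling and edgeR gave 1 and DESeq2 2. TMM scaling called 1.02% of all genes higher and 1.2% lower there, and median-ratio scaling 0.851% and 1.53%. For dCBP-1 against the combination, in place of 1, TMM scaling and edgeR gave 5, median-ratio scaling 6 and DESeq2 7. The filter at 20 and only the groups compared gave 2. Here edgeR called 2.4% of all genes higher and 6.22% lower. With the filter at 20 these shares were 0.914% and 7.53%, and with only the groups compared 0.919% and 4.79%. For dCBP-1 against GNE-781, in place of 4, both scalings, edgeR and only the groups compared gave 8 and DESeq2 11. The shares of all genes rose too, from 2.19% higher and 7.13% lower to 4.89% and 8.51% in edgeR. They were 6.25% and 9.68% in DESeq2 and 4.37% and 8.78% with median-ratio scaling. For the combination against A-485, in place of 5, no filter, the replicate block and only the groups compared gave 3. Beside these, all genes gave 0.427% higher and 0.649% lower, 1.11% and 1.3%, and 1.52% and 1.6%. For GNE-781 against A-485, in place of 1, no filter and the replicate block gave 0, only the groups compared 5 and DESeq2 7. Only the groups compared called 1.38% of all genes higher and 1.51% lower, and DESeq2 1.29% and 3.32%, in place of 0.273% and 0.727%. No filter gave 0.074% and 0.299%, and the replicate block 0.143% and 0.522%. The cause of these differences was not tested.

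No shared deviation by replicate number was seen: 0 of 30 same-numbered pairs correlated over 0.1, beside 5 of 60 other pairs. This does not show how the libraries were handled. With the replicate block the counts were 21 for dCBP-1, 9 for the combination, 9 for GNE-781 and 0 for A-485 against DMSO. Among all genes, dCBP-1 then gave 18.2% higher and 17.8% lower and the combination 10.1% and 8.78%. GNE-781 gave 6.58% and 7.81%, and A-485 0.242% and 1.22%. TMM scaling moved the median log2 fold change of all genes in the combination against A-485 to 0.01, in place of 0.11, and the calls there to 283 higher and 707 lower, in place of 263 and 253. It gave 164 higher and 193 lower for A-485 against DMSO, in place of 56 and 289, and 337 and 1025 for dCBP-1 against the combination, in place of 89 and 904. Scaling to spike-ins was not run. With 3 libraries a group, the median 95% bound of genes not called with dCBP-1 lay 0.479 from 0 on the log2 scale.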
